A study of Homo sapiens with 4 samples.

Results

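Heat shock chaperones of the cytosol and mitochondria were read in 4 bulk RNAseq libraries of a human esophageal adenocarcinoma line and its metastatic subline. The 10 genes were *HSP90AB1*, *HSPA8*, *HSPA1A*, *HSPA1B*, *HSPH1*, *DNAJB1* and *HSPB1* of the cytosol and nucleus, and *HSPA9*, *HSPD1* and *HSPE1* of the mitochondria. They were chosen by symbol, through the Ensembl gene on the primary assembly, from the 63677 genes in the files. The rule used no measured value, but the genes were chosen with earlier results of these data known. All 10 were among the 17143 genes that passed the filter on low counts and were tested.

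FLO-1 parental is a cultured line from a human esophageal adenocarcinoma, and FLO-1LM is a subline grown from a liver deposit after FLO-1 cells had been carried serially through NSG mice, which lack functional lymphocytes and natural killer cells. There were 2 libraries of each. Both lines were cultured without a named treatment and harvested near confluency after a change of medium, and no heat shock is described. Nothing in the labels says that the libraries of one line are separate cultures, so the p-values measure only the spread between these libraries, and no batch or date is given, so a batch and the line cannot be told apart. With 2 libraries against 2, an exact two-sided permutation test of one value cannot go below p = 0.333, and the tests below are therefore those of edgeR, which takes part of its estimate of spread from all genes.

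Library totals ran from 19060310 to 25920336 counts. Keratins of simple epithelium, *KRT8* and *KRT18*, were present in both lines at 273 and 184 CPM (counts for each 1000000 of a library's total, the total adjusted by TMM, which levels libraries on the bulk of their genes) in FLO-1LM and 443 and 291 CPM in FLO-1 parental, and all 4 epithelial markers tested were lower in FLO-1LM (edgeR, adjusted p below 0.05). *EPCAM*, a surface marker of carcinoma cells, had 3 to 12 counts per library and was not tested. Of markers of other cell types, 1 of 5 leukocyte, 0 of 3 endothelial (*PECAM1* among them was not matched to a gene and not read), 1 of 4 fibroblast and 0 of 4 hepatocyte genes passed the filter, and neither of those that did was called. The leukocyte gene *PTPRC* and the hepatocyte gene *ALB* had 0 counts in all 4 libraries. Whether the lower keratin level has any part in the chaperone values was not tested.

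Chaperones bind proteins that are unfolded or not yet folded and hold, fold or release them, mostly in cycles driven by ATP. In the cytosol, J-domain proteins such as *DNAJB1* hand clients to HSP70, HSP110 proteins such as *HSPH1* exchange its nucleotide and help to pull apart aggregates, and HSP90 takes over late folding steps of kinases and steroid receptors. In the mitochondrial matrix, *HSPA9* (mortalin) pulls in imported proteins, and *HSPD1* (HSP60) with its lid *HSPE1* (HSP10) encloses and folds them. *HSPA8* and *HSP90AB1* are the largely constitutive forms, while *HSPA1A*, *HSPA1B*, *DNAJB1* and *HSPB1* are induced strongly by heat through the transcription factor HSF1, which binds inverted repeats of the unit nGAAn. Tumor cells often carry high levels of these proteins.

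The heat shock unit was searched in the 250 bases before each annotated start site, in RefSeq sequence of build GRCh38.p14, because the genes are best known for this shared control. The search took the letters GAANNTTC and TTCNNGAA, each of which reads the same on both strands, and matches of one may overlap matches of the other. All 10 genes had an entry, with 15 windows in all. At least 1 match lay upstream of 7 of the 10 genes (70.0%), against 3813 of all 27305 genes with a window (14.0%). All genes had 35116 windows together, and a gene with more windows has more chances of a match. The windows of *HSPA1A* and *HSPA1B* are nearly the same sequence, so their matches are not separate cases. These are the matched stretches, read 5′ to 3′ on the strand of the gene, with the matches in capitals.
HSPA1A, chr6:31815419-31815462, plus strand: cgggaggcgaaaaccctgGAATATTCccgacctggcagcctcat
HSPA1B, chr6:31827615-31827658, plus strand: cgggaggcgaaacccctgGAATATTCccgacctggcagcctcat
HSPA8, distal, chr11:123062336-123062384, minus strand: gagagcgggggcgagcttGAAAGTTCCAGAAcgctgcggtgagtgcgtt
HSPA8, proximal, chr11:123062161-123062209, minus strand: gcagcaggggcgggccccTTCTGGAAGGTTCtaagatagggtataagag
HSP90AB1, chr6:44247760-44247861, plus strand: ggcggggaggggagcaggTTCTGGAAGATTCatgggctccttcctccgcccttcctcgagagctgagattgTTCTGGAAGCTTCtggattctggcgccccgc
DNAJB1, chr19:14518419-14518492, minus strand: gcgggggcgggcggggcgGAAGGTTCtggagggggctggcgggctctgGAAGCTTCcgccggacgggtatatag
HSPB1, chr7:76302473-76302516, plus strand: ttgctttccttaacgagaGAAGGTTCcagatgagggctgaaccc
HSPD1, chr2:197500050-197500090, minus strand: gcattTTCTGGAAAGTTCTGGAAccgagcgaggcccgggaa

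The capitals show how the genes differ in the number of exact matches, which is not a count of heat shock units. Overlapping matches share units, and units that depart from these letters were not searched. *HSPA1A* and *HSPA1B* each held a single match, beginning 106 and 105 bases before the start, inside upstream windows that were identical at 235 of 249 aligned bases (94.4%). *HSP90AB1* held 4 matches in a pair of clusters, the first 165 and the last 107 bases before one of its 3 annotated starts, with 0 before the others, and *HSPA8* held 4 in distal and proximal clusters. *HSPD1* held 3 overlapping matches, the first 245 bases before one of its annotated starts. *HSPD1* and *HSPE1* are transcribed away from each other, and the start of *HSPE1* lies 105 bases from one *HSPD1* start and 539 bases from the other. No match was found in the windows of *HSPA9*, *HSPH1* and *HSPE1*, which says only that these letters are not in those windows.

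None of the 10 genes passed the test between the lines. By the quasi-likelihood F test of edgeR, with p adjusted by Benjamini and Hochberg's method over all genes tested, 382 of 17143 genes were called at an adjusted p below 0.05 (2.23%, of which 69 were higher and 313 lower in FLO-1LM), and 0 of the 10 chaperones were among them. DESeq2 and limma voom called 0 of the 10 as well, and 2 (*HSPH1* and *HSPE1*) had an unadjusted edgeR p below 0.05, as did 2119 of all genes tested (12.4%). All 10 estimates were above 0. So were 8639 of the 17143 over all genes tested, and 2620 of the 4871 with a mean above 50 CPM. The median log2 fold change (FLO-1LM against FLO-1 parental) of the 10 was 0.076, beside 0.0016 over all genes tested and 0.012 over those 4871. When libraries were scaled by their totals alone, the estimates of *HSPA1B* and *HSPD1* turned to −0.0090 and −0.010. The 95% intervals spanned 0 for 8 genes, and over all 10 they reached from 0.901-fold to 1.39-fold.

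A gene's libraries did not overlap when both of one line lay on one side of both of the other. This held for 42.6% of all genes tested, and for 20.9% the FLO-1LM libraries were the higher ones. Among the chaperones it held for 4 of 10 (*HSPA8*, *HSP90AB1*, *HSPH1* and *HSPE1*), with FLO-1LM above in all 4. The first of these shares is near that of all genes.

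The 10 genes together took 0.577% and 0.596% of all counts in FLO-1LM and 0.565% and 0.568% in FLO-1 parental. Both FLO-1LM libraries lay above both parental ones by a small margin. The spread between libraries was wider in FLO-1LM for 9 of the 10 genes, with an SD of up to 14.9% of the mean there and up to 7.48% in FLO-1 parental. The share of all genes with a wider spread in FLO-1LM was not counted, so this is not read as a trait of the chaperones.

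**Figure D1:**
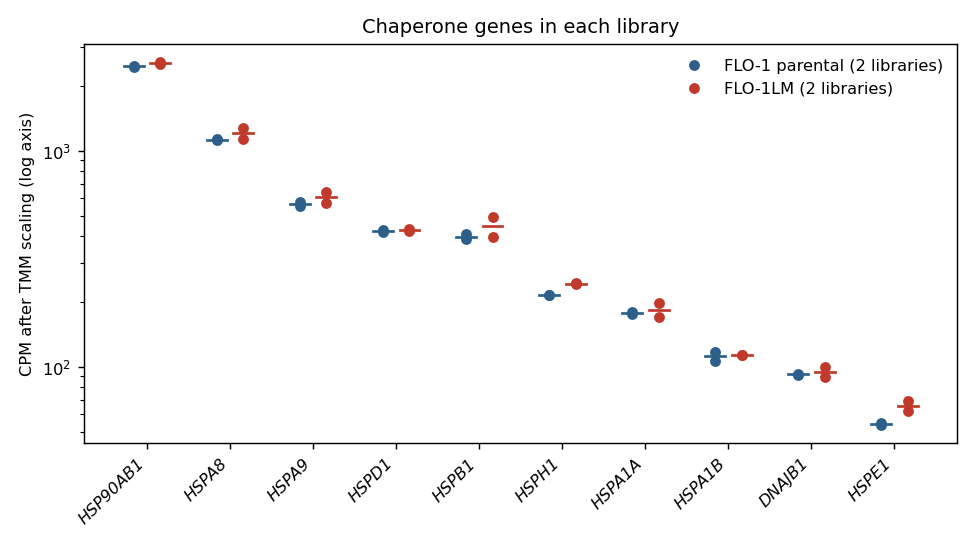
Level of each chaperone gene in each library, in CPM after TMM scaling on a log axis, not corrected for gene length. Points are single libraries (2 per line) and bars are their means. *HSP90AB1* sits between 2445 and 2566 CPM in all 4 libraries and *HSPE1*, the gene with the fewest counts, between 53.5 and 69.5 CPM.

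*HSP90AB1* (ENSG00000096384, GRCh37 chr6:44213903-44221625), the constitutive cytosolic HSP90, was the most abundant of the 10, per transcript length too. Its level was 2528 and 2566 CPM in the FLO-1LM libraries and 2469 and 2445 CPM in the parental ones, from 46882 to 66054 counts. All 4 libraries thus stayed close together, and the FLO-1LM libraries were slightly the higher. The means were 2547 ± 26.8 CPM in FLO-1LM and 2457 ± 16.7 CPM in FLO-1 parental (SD, n = 2 each). The log2 fold change of 0.05 ± 0.06 (SE) had a 95% interval from −0.08 to 0.18 and did not pass the test (edgeR adjusted p = 0.820). In percent, this interval ran from −5.16% to 13.3%, the narrowest among the 10.

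*HSPA8* (ENSG00000109971, GRCh37 chr11:122928197-122933938), the constitutive HSP70 that also uncoats clathrin vesicles, was measured at 1135 and 1273 CPM in FLO-1LM and at 1114 and 1132 CPM in FLO-1 parental. FLO-1LM replicate 2 stood above the other 3 libraries, while FLO-1LM replicate 1 was just above the higher parental library. The means were 1204 ± 97.4 and 1123 ± 12.3 CPM (SD, n = 2 each). Between the lines the log2 fold change was 0.10 ± 0.07 (SE), with a 95% interval from −0.05 to 0.25 (edgeR adjusted p = 0.633). It was 0.18 without FLO-1LM replicate 1 and 0.016 without FLO-1LM replicate 2, and was called in neither case.

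*HSPA1A* (ENSG00000204389, GRCh37 chr6:31783320-31785723) and *HSPA1B* (ENSG00000204388, GRCh37 chr6:31795515-31798031) are neighbouring genes for the same heat-inducible HSP70 protein, commonly called HSP72. *HSPA1A* stood at 197 and 169.7 CPM in FLO-1LM and at 175 and 179 CPM in FLO-1 parental. The FLO-1LM libraries lay on either side of the parental ones, and the log2 fold change of 0.05 ± 0.08 (SE, 95% interval −0.12 to 0.22, edgeR adjusted p = 0.882) became −0.06 without FLO-1LM replicate 1. *HSPA1B* had 113 CPM in both FLO-1LM libraries and 106 and 117 CPM in FLO-1 parental. Here the parental libraries lay on either side, with a log2 fold change of 0.02 ± 0.08 (SE, 95% interval −0.15 to 0.19, edgeR adjusted p = 0.955), which became −0.05 without parental replicate 1.

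The transcripts of this pair were identical at 2301 of 2382 aligned bases (96.6%), so how their reads were split depends on the authors' counting, and each value by itself is uncertain. Whether reads that match both genes were counted at all is not given in the sources used here, so their sum may be low too. Of all 75-base windows of the *HSPA1A* transcript, 73.8% were found unchanged in another of the 10 transcripts, and for *HSPA1B* 70.2%. Summed, the pair had 6910 and 7277 counts in FLO-1LM and 6179 and 5685 in FLO-1 parental. The sum differed by a log2 fold change of 0.04 ± 0.08 (SE, edgeR adjusted p = 0.898), so the joined count did not pass the test either.

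*HSPH1* (ENSG00000120694, GRCh37 chr13:31709110-31736525) encodes HSP105, an HSP110 protein that recharges HSP70. Its level was 242 and 241 CPM in FLO-1LM and 214 and 215 CPM in FLO-1 parental. The libraries of a line were almost equal, and the lines did not overlap. The means were 242 ± 1.36 and 214 ± 1.11 CPM (SD, n = 2 each), a difference of 12.6% with a 95% interval from 1.46% to 25.0%. The log2 fold change of 0.17 ± 0.07 (SE) had an unadjusted p of 0.0278 in edgeR and an adjusted p of 0.319, and it ranked 1492 by p among the genes tested. Over the other settings tried the log2 fold change stayed between 0.14 and 0.18 and passed the adjusted threshold in none of 11.

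*DNAJB1* (ENSG00000132002, GRCh37 chr19:14625581-14671203) encodes HSP40, the J-domain protein that brings clients to HSP70. It was measured at 89.4 and 99.9 CPM in FLO-1LM and at 91.9 and 91.8 CPM in FLO-1 parental. The parental libraries fell between the FLO-1LM ones. Its log2 fold change was 0.04 ± 0.08 (SE, 95% interval −0.13 to 0.22, edgeR adjusted p = 0.903), and −0.04 without FLO-1LM replicate 2. Its exons share 525 bases with *TECR* on the other strand, a gene with 1320 to 1572 counts per library. The library kit keeps strand, but the strand setting of the counting is not given in the sources used here, so reads in the shared bases may come from either gene.

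*HSPB1* (ENSG00000106211, GRCh37 chr7:75931990-75933612) encodes HSP27, a small heat shock protein that holds unfolded clients without ATP. It stood at 493 and 399 CPM in FLO-1LM and at 388 and 412 CPM in FLO-1 parental. One FLO-1LM library was above all others and the other lay between the parental ones. The means were 446 ± 66.3 and 399.9 ± 16.8 CPM (SD, n = 2 each), with a log2 fold change of 0.16 ± 0.09 (SE, 95% interval −0.02 to 0.34, edgeR adjusted p = 0.501). This value turned on which FLO-1LM library was kept. It was −0.0038 without FLO-1LM replicate 1 and 0.30 without FLO-1LM replicate 2, where it passed the test (edgeR adjusted p = 0.00673, with 1 library standing for FLO-1LM).

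*HSPA9* (ENSG00000113013, GRCh37 chr5:137889445-137911364) was the mitochondrial gene with the most counts. Its level was 572 and 643 CPM in FLO-1LM and 552 and 577 CPM in FLO-1 parental. FLO-1LM replicate 1 lay between the parental libraries and FLO-1LM replicate 2 above them, as it did for *HSPA8*. The log2 fold change was 0.11 ± 0.07 (SE, 95% interval −0.05 to 0.26, edgeR adjusted p = 0.633). It was 0.19 without FLO-1LM replicate 1 and 0.021 without FLO-1LM replicate 2, again with no call.

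*HSPD1* (ENSG00000144381, GRCh37 chr2:198351308-198381461) had the smallest estimate of the 10. It was measured at 423 and 433 CPM in FLO-1LM and at 418 and 426 CPM in FLO-1 parental. The ranges overlapped, and the means were 428 ± 7.25 and 422 ± 5.93 CPM (SD, n = 2 each). The log2 fold change of 0.02 ± 0.07 (SE) had a 95% interval from −0.12 to 0.17, or from −8.23% to 12.1% (edgeR adjusted p = 0.945).

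*HSPE1* (ENSG00000115541, GRCh37 chr2:198364864-198368173) had the largest estimate of the 10. It stood at 69.5 and 62.0 CPM in FLO-1LM and at 53.5 and 54.9 CPM in FLO-1 parental, from 1548 and 1596 counts against 1180 and 1053. Both FLO-1LM libraries were above both parental ones. The means were 65.7 ± 5.30 and 54.2 ± 0.982 CPM (SD, n = 2 each), a difference of 21.2% with a 95% interval from 5.75% to 38.9%. The log2 fold change of 0.28 ± 0.09 (SE) had an unadjusted p of 0.00830 in edgeR and an adjusted p of 0.175, at rank 812 among the genes tested. It passed the threshold in 1 of 12 other settings, without FLO-1LM replicate 2 (0.36, edgeR adjusted p = 0.0149), and was 0.19 without FLO-1LM replicate 1.

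HSP60 and HSP10 work as one complex, so their transcripts were also set against each other per kilobase of transcript. The ratio of *HSPE1* to *HSPD1* on that scale was 0.662 and 0.576 in FLO-1LM and 0.516 and 0.519 in FLO-1 parental. It was higher in both FLO-1LM libraries, though those libraries differed from each other by more than the lower of them differed from the parental ones. Counts on pseudogenes of either gene, given below, are left out of this ratio. For *HSPE1* their share was smallest in FLO-1LM replicate 1 (27.2%), the library with the highest ratio. The 2 genes share 135 exon bases on opposite strands. The readthrough gene *HSPE1-MOB4*, which shares 192 exon bases with *HSPE1* on its own strand, had 0 counts in all 4 libraries.

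**Figure D2:**
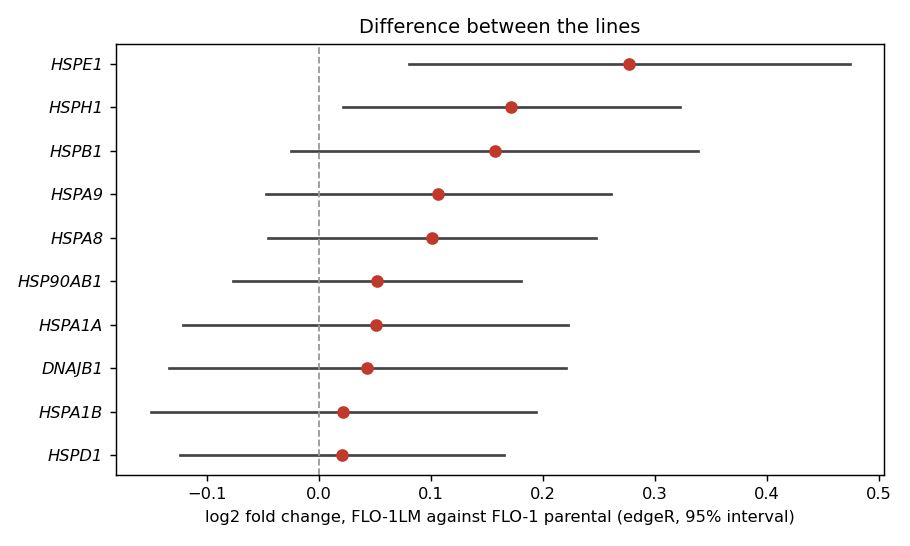
Difference between the lines for each chaperone gene, as log2 fold change of FLO-1LM against FLO-1 parental from edgeR, ordered by size. Points are estimates and lines are 95% intervals for each gene by itself, from 2 libraries per line. All 10 points lie above 0, and the intervals of *HSPE1* and *HSPH1* alone leave 0 out.

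Per kilobase of transcript, the order of the 10 genes was led by *HSP90AB1*, at 957 to 1004 CPM per kb, with no overlap with the next gene. *HSPB1* (499 to 634 CPM per kb) and *HSPA8* (492 to 562 CPM per kb) came next and overlapped, with *HSPB1* the higher in 3 of 4 libraries. The mitochondrial genes followed, with *HSPD1* at 186 to 193, *HSPA9* at 125 to 146 and *HSPE1* at 96.1 to 125 CPM per kb. Counts on pseudogenes, given below, are left out of all these levels. They made up 27.2% to 39.4% of the joint counts for *HSPE1* and 9.63% to 11.5% for *HSPA9*. The order of *HSPA9* and *HSPE1* is therefore not settled. *HSPA1A* lay at 70.7 to 82.1 CPM per kb, with the limit that reads it shares with *HSPA1B* may not have been counted. At the low end, *HSPA1B* (41.9 to 46.6), *HSPH1* (40.7 to 46.2) and *DNAJB1* (39.9 to 44.5 CPM per kb) overlapped, so that their order was not resolved.

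On this scale, and by the deposited counts, the constitutive HSP70 stood above the inducible one. The ratio of *HSPA8* to *HSPA1A* was 6.11 and 7.95 in FLO-1LM and 6.76 and 6.70 in FLO-1 parental, so the parental libraries fell between those of FLO-1LM. Against *HSPA1A* and *HSPA1B* together it was 3.95 and 4.86 against 4.29 and 4.12, with the same overlap. Adding the pair covers a division of reads between them, but not reads left uncounted because they match both. Such a loss would make these ratios too high, and it was not tested. The ratio of *HSPA1A* to *HSPA1B* was 1.82 and 1.57 against 1.74 and 1.60, with the same overlap and with the limit that reads of the pair are hard to tell apart.

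Many chaperone genes have left processed pseudogenes, intronless copies of their mRNA inserted elsewhere in the genome, and reads of the parent gene can be counted there. The files held 71 annotated pseudogenes named for the 10 genes, of which 20 were tested. Calls were 0 by edgeR, DESeq2 and limma voom, and 0 had an unadjusted edgeR p below 0.05. *HSPA1A*, *HSPA1B* and *HSPH1* had none.

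*HSPE1* was the most affected, with 26 named pseudogenes. Of the counts on *HSPE1* and its pseudogenes together, 27.2% and 37.7% lay on pseudogenes in FLO-1LM and 39.4% and 34.2% in FLO-1 parental. FLO-1LM replicate 1, the library with the highest *HSPE1* level, had the smallest share there. With pseudogene counts added, the log2 fold change of *HSPE1* was 0.18 ± 0.08 (SE, edgeR adjusted p = 0.366), in place of 0.28. Most of these counts sat on *HSPE1P2* (204 and 437 counts in FLO-1LM, 258 and 266 in FLO-1 parental) and *HSPE1P3* (258 and 327 against 351 and 195). *HSPE1P4*, *HSPE1P5*, *HSPE1P6* and *HSPE1P7* reached 1% of the *HSPE1* count in at least 1 library, at 7 to 103 counts each. Over the transcript, 21.3% of 75-base windows of *HSPE1* were found unchanged in a named pseudogene. Read length is not given in the sources used here.

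*HSPD1* had 24.1% and 27.5% of its joint counts on pseudogenes in FLO-1LM and 24.8% and 25.2% in FLO-1 parental, mainly on *HSPD1P1* (1587 to 2263 counts per library) and *HSPD1P4* (839 to 1329 counts), with *HSPD1P5* and *HSPD1P6* at 129 to 399 counts. *HSP90AB1* had 17.5% and 18.4% against 17.8% and 18.6%, almost all on *HSP90AB3P* (GRCh37 chr4:88812995-88815167), which alone held 10034 to 14105 counts, and some on *HSP90AB2P* (609 to 779 counts). For both genes the shares overlapped between the lines, and with these counts added the log2 fold change was 0.038 in place of 0.021 for *HSPD1* and 0.047 in place of 0.052 for *HSP90AB1*. *HSPA9P1* took 9.63% to 11.5% of the joint counts of *HSPA9*, the pseudogenes of *HSPA8* (with *HSPA8P1*, *HSPA8P5* and *HSPA8P8* over 1% of the gene) took 5.65% to 6.04%, and those of *HSPB1*, mainly *HSPB1P2*, took 4.52% to 5.79%.

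**Figure D3:**
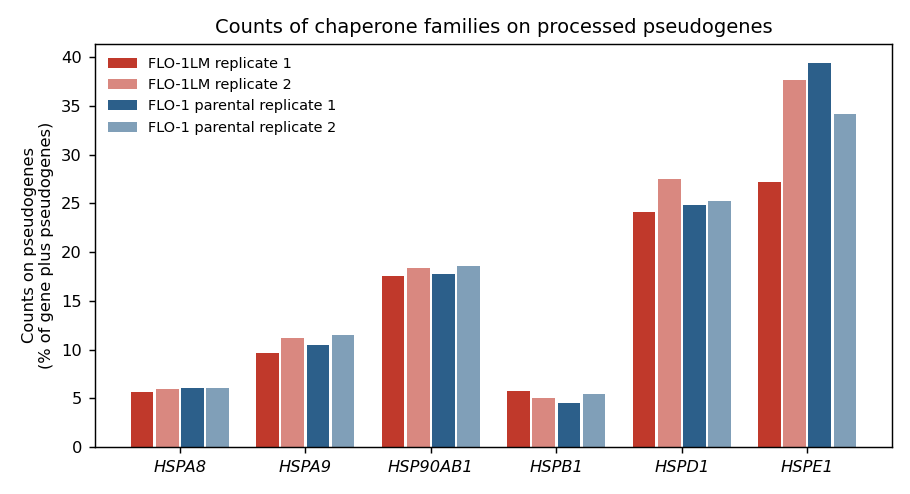
Share of counts on named processed pseudogenes, in percent of the counts on a chaperone gene and its pseudogenes together, for the 6 genes with more than a trace. Each bar is a single library. For *HSPE1* the bars run from 27.2% to 39.4%, the widest range, while those of *HSPA8* stay between 5.65% and 6.04%.

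The wider chaperone network was read from lists of partner genes. Without the 10 genes above, the lists held 104 genes, of which 94 were tested. By edgeR 2 were higher in FLO-1LM and 1 was lower, with 9 of 94 at an unadjusted p below 0.05 (12.4% of all genes tested) and a median log2 fold change of 0.033, and DESeq2 and limma voom each called 3. In every list with 0 calls by edgeR, DESeq2 and limma voom also called 0. *HSP90AA1*, the inducible cytosolic HSP90 and partner of *HSP90AB1*, had 1789 and 1741 CPM in FLO-1LM and 1483 and 1449 CPM in FLO-1 parental. The lines did not overlap, and the level rose by a log2 fold change of 0.27 ± 0.06 (SE, edgeR adjusted p = 0.0295). Per kilobase, the ratio of *HSP90AA1* to *HSP90AB1* was 0.560 and 0.537 in FLO-1LM and 0.476 and 0.469 in FLO-1 parental. This ratio leaves out counts on pseudogenes, which were not read for *HSP90AA1*, and it restates the *HSP90AA1* difference and is not a separate result. The study's own list of genes higher in FLO-1LM, drawn from these libraries, also holds *HSP90AA1*, so the call is not independent evidence. It was lost with library totals alone (adjusted p = 0.0550), with at least 10 counts asked of every library (0.0567), without parental replicate 1 (0.163) and without parental replicate 2 (0.260).

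*SERPINH1*, the collagen chaperone HSP47 of the endoplasmic reticulum (ER), which is heat-inducible, had 101 and 106 CPM in FLO-1LM and 78.3 and 85.9 CPM in FLO-1 parental. It rose by a log2 fold change of 0.33 ± 0.08 (SE, edgeR adjusted p = 0.0435), a call lost with library totals alone (0.0703) and without parental replicate 1 (0.797) or parental replicate 2 (0.174). *IER5*, an HSF1 target that itself promotes HSF1 activity, had 123 and 118 CPM in FLO-1LM and 153 and 163 CPM in FLO-1 parental. It fell by 0.40 ± 0.08 (SE) on the log2 scale (edgeR adjusted p = 0.00857), a call lost without parental replicate 1 (0.0597) or parental replicate 2 (0.230). In the list of other heat-inducible genes the calls thus lay on both sides, 1 of 14 tested higher and 1 lower. *HSP90AA1* is counted in another list. Of these 14, estimates were above 0 for 12 and below for 2, with a median log2 fold change of 0.099. An unadjusted edgeR p below 0.05 was found for 4 of them, beside 12.4% of all genes tested.

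Among HSP70 and HSP110 relatives, 0 of 8 tested were called in either direction by edgeR (1 at an unadjusted p below 0.05), with a median log2 fold change of 0.13. *HSPA4*, an HSP110 protein like *HSPH1*, had the smallest p and the highest CPM of the list, with 394 and 389 CPM in FLO-1LM and 350.3 and 339.6 CPM in FLO-1 parental (log2 fold change 0.18 ± 0.07 SE, edgeR adjusted p = 0.250). *HSPA6*, an HSP70 gene that is almost silent without stress, had 7 and 11 counts in FLO-1LM and 25 and 5 in FLO-1 parental and was not tested. These counts were thus near the floor in both lines.

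In the HSP90 family and its cochaperones, *HSP90AA1* was the 1 of 19 called. *AHSA1*, the activator of the HSP90 ATPase, had 125 and 124 CPM in FLO-1LM and 107 and 104 CPM in FLO-1 parental, with a log2 fold change of 0.24 ± 0.08 (SE, edgeR adjusted p = 0.152). It was not called, although its lines did not overlap. Of 19 J-domain genes tested 0 were called by edgeR (0 unadjusted), and *DNAJA1*, with the highest CPM of them, had means of 359 and 323 CPM (log2 fold change 0.15, edgeR adjusted p = 0.438). Of 8 nucleotide exchange factors, which release nucleotide from HSP70, 0 were called by edgeR (0 unadjusted). *BAG3* had means of 91.0 and 86.9 CPM and *GRPEL2*, which serves *HSPA9*, a log2 fold change of 0.14 (edgeR adjusted p = 0.730).

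Of 9 genes listed by name as small heat shock proteins 3 passed the filter and 0 were called by edgeR (0 unadjusted). *HSPB11*, a synonym and not the annotated name of its gene, had means of 55.3 CPM in FLO-1LM and 56.5 CPM in FLO-1 parental. *HSPB8* had means of 2.02 and 1.35 CPM, while *CRYAB* had 0 to 2 counts per library. The cytosolic chaperonin TRiC and prefoldin had 0 of 14 called by edgeR (2 unadjusted), with *CCT5* at means of 791 and 772 CPM and *PFDN1* at a log2 fold change of 0.21 (edgeR adjusted p = 0.368). Mitochondrial chaperone partners and proteases had 0 of 11 called by edgeR (0 unadjusted), with a median log2 fold change of −0.03. *LONP1*, the matrix protease, had a log2 fold change of 0.18 (edgeR adjusted p = 0.412), and *YME1L1*, a protease of the inner membrane, had means of 259 and 241 CPM.

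The transcription factors of the heat shock response were read as transcripts only, which does not measure their activity. Of 6 heat shock factor and binding protein genes tested 0 were called by edgeR (1 unadjusted). *HSF1*, the main regulator, had 91.4 and 84.4 CPM in FLO-1LM and 78.5 and 80.6 CPM in FLO-1 parental, a log2 fold change of 0.14 ± 0.08 (SE, edgeR adjusted p = 0.541). *HSF4* had a log2 fold change of −0.27 (edgeR adjusted p = 0.370), and *HSBP1*, which binds HSF1, had means of 113 and 106 CPM. Neither of these was called, and the estimates lay on both sides of 0.

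Chaperones of the ER served as the nearest comparison, since they do the same work in another compartment. Of 12 tested 0 were called by edgeR (0 unadjusted), with a median log2 fold change of 0.035, beside 0.076 for the 10 cytosolic and mitochondrial genes. These 12 do not include *SERPINH1*, the ER chaperone called higher above, which was listed with the heat-inducible genes. *HSP90B1*, the ER form of HSP90, had means of 1511 and 1476 CPM. *HYOU1*, the ER form of HSP110, had a log2 fold change of −0.12 (edgeR adjusted p = 0.556), on the other side of 0 from *HSPH1*. Estimates were above 0 for 8 of the 12 ER genes, beside 8639 of the 17143 genes tested. Immediate early genes, which respond to handling and serum as well as to stress, had 0 of 10 called higher and 1 lower. That gene, *EGR1*, had 18.3 and 15.1 CPM in FLO-1LM and 25.9 and 25.3 CPM in FLO-1 parental, and it fell by 0.62 ± 0.14 (SE) on the log2 scale (edgeR adjusted p = 0.0209). Its part in the chaperone values was not tested.

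**Figure D4:**
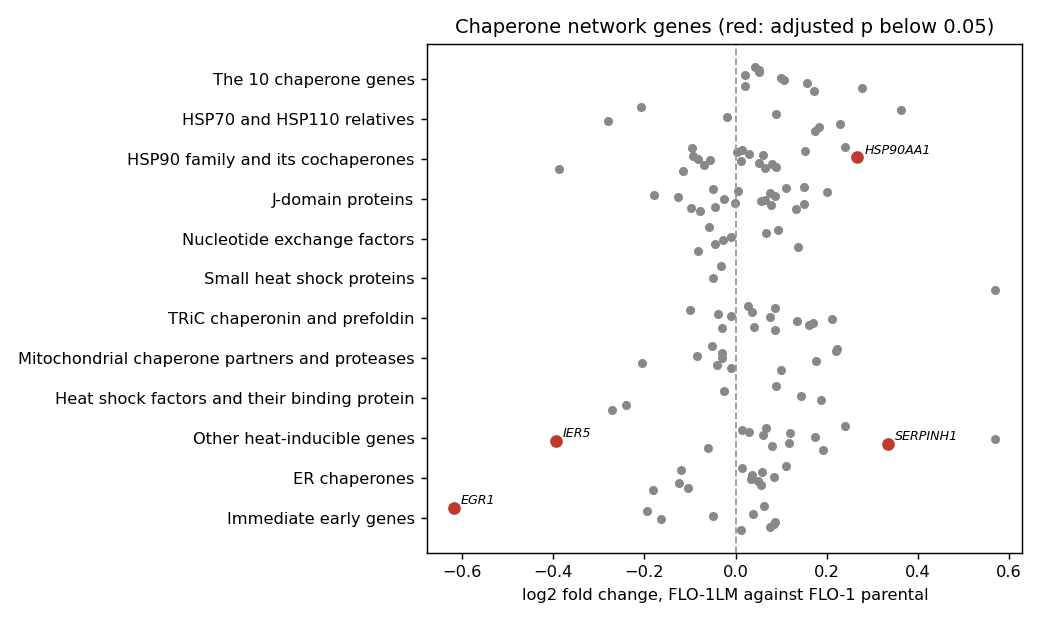
Log2 fold change of FLO-1LM against FLO-1 parental from edgeR for the 10 chaperone genes and for the tested genes of each partner list, a gene standing in more than one row where lists share it. Red points have an adjusted p below 0.05 and grey points do not, and the height within a row carries no value. The 10 chaperone genes lie between 0.02 and 0.28, and the named red points are *HSP90AA1*, *SERPINH1*, *IER5* and *EGR1*.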

How the data were processed

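Total RNA was made into directional libraries and sequenced on an Illumina NextSeq 500. Per the labels, reads were converted with bcl2fastq 2.17, trimmed with Trimmomatic 0.30 and placed on GRCh37. The authors deposited raw counts per Ensembl gene for each library, and the aligner, strand setting and read length are not given in the sources used here. Genes were named and placed with GENCODE annotation lifted to GRCh37, and all rows carried a gene. Genes passing edgeR's filter (at least 10 counts, at the median library size, in 2 libraries and 15 in all) were scaled by TMM and tested in R 4.3.3 with edgeR 4.0.16 (quasi-likelihood F test, adjusted p below 0.05 by Benjamini-Hochberg). The edgeR, DESeq2 1.42.0 and limma 3.58.1 fits were tested on simulated data. CPM values are counts for each 1000000 of the TMM-scaled library total, and SE was the log2 fold change over the root of F. The common biological coefficient of variation was 0.0899. Per-kilobase levels used 1 representative transcript per gene, and pseudogenes were matched by name.

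The chaperone genes and the lists (HSP70 relatives, HSP90 cochaperones, J-domain, exchange factors, small heat shock proteins, TRiC, mitochondrial partners, heat shock factors, heat-inducible, ER, immediate early, and cell type markers) were chosen with earlier results of these data known, so no list was tested as a set. Named were all 10 genes and, from each list of partner genes, every gene called, or otherwise that with the smallest p and that with the highest CPM, with pseudogenes holding at least 1% of a gene's count. *KRT8*, *KRT18* and *PTPRC* served as marker checks. *HSF1*, *PECAM1*, *EPCAM*, *ALB*, *AHSA1*, *HSPA6*, *CRYAB* and *TECR* were named after their values were seen. The alternatives tried were other scalings, filters and tests, leaving out each library or the mitochondrially encoded genes, and adding pseudogene counts. A gene of the heat-inducible list is not reported here.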

Additional observations from a re-analysis of the deposited data

How the results depend on the processing

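The count of 0 called among the 10 chaperone genes was kept with RLE factors, library totals, DESeq2, limma voom, no filter, at least 10 counts in every library, mitochondrially encoded genes left out and pseudogene counts added, and ran from 0 to 2 when 1 library was left out, the 2 being *HSPB1* and *HSPE1* without FLO-1LM replicate 2. The number of genes called over all genes was 577 with no filter and 116 to 1052 with 1 library left out, against 382. Fewer parental libraries gave the lower counts and fewer FLO-1LM libraries the higher ones, and the cause was not tested. Direction reversed for *HSPA1A* and *HSPB1* without FLO-1LM replicate 1, for *HSPA1B* without parental replicate 1 and with library totals (−0.009041), for *DNAJB1* without FLO-1LM replicate 2 and for *HSPD1* with library totals (−0.01013). Over the left-out libraries these genes ran from −0.06106 to 0.1553, −0.0531 to 0.09977, −0.03937 to 0.1197 and −0.00381 to 0.302 in the order *HSPA1A*, *HSPA1B*, *DNAJB1*, *HSPB1*. The cause was not tested. *HSPA8*, *HSPA9*, *HSP90AB1*, *HSPH1* and *HSPE1* kept their direction in every alternative run, *HSPA8* from 0.0164 to 0.1804 and *HSPA9* from 0.02078 to 0.1872. For the partner lists, whose alternatives were chosen after seeing the data, the number called was 1 with library totals and 0 to 6 with 1 library left out, against 3. A line left with 1 library is assumed to vary like the other. Copies of *HSPA1A* and *HSPA1B* on alternate haplotypes were not added, because their identifiers were not paired with names in the tables used here, so the joined count holds both primary genes only. No paired analysis was possible because the labels number no replicates, and the numbers used here only name libraries in accession order. With 2 libraries a line, the 95% intervals given describe only the spread between these libraries, which edgeR estimates in part from all genes.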
